A study of Mus musculus with 16 samples.

Results

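The genes described here are Ghsr, Prss12, Cbln1, Lrrc38, Ndst4, Slit3 and Pcdh9, 7 of 38924 gene IDs in tables of 16 mouse brain libraries and 7 of the 18350 genes tested. They were chosen by their change after CFA in earlier results of these data, being called higher in wild type (WT) libraries with a different change in libraries labelled RGS4 KO, and by their levels in each library. Both CFA contrasts, the difference between these and the levels are therefore given as a description with no test, and the comparison of genotypes inside each treatment, which shares those libraries, is treated in the same way. The average difference between the genotypes and the variation inside groups are not what the CFA contrasts measure, and p-values are given for both. The levels and the correlation of the genes over all libraries were known when they were chosen, so these p-values too are read as a description. All 7 passed the filter on low counts.

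The libraries were made from punches labelled as ventral posterolateral thalamic nuclei, a relay of body sensation and pain signals to the cortex. The 4 groups of 4 libraries were genotype RGS4 KO after CFA (libraries 13 to 16), RGS4 KO naive (5 to 8), WT after CFA (9 to 12) and WT naive (1 to 4). CFA is not spelt out in the labels, and it is the usual short form of complete Freund's adjuvant, which is injected to cause lasting inflammation. Each library pooled bilateral punches from 2 mice, and all 16 samples carry the label Female, although the protocol names males. The series text describes a floxed RGS4 gene and an adeno-associated virus with Cre, while sample labels name a KO genotype only. The promoter that drives Cre, the share of cells it reached, the virus given to WT mice, the age and strain of the mice and the time after CFA are not known from these sources.

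Each library held between 18057885 and 78773967 counts. Rgs4, the targeted gene, did not separate the genotypes. It was at 84.1 ± 5.50 CPM (counts per 1000000 counts of the TMM-scaled library total) in CFA libraries labelled KO, 81.3 ± 2.74 CPM in naive libraries labelled KO, 89.3 ± 6.66 CPM in WT after CFA and 80.9 ± 3.66 CPM in naive WT (SD, n = 4 each), and the average genotype difference was -0.04 on the log2 scale (SE 0.04, edgeR adjusted p = 0.709). The group is therefore written as libraries labelled KO, and every direction below is drawn from labels that this gene does not bear out. Xist lay between 560 and 750.1 CPM and 4 Y-linked genes summed to at most 1.30 CPM, as the label Female would have it. The list of 12 thalamic relay markers summed to between 1062 and 1277 CPM in every library, with Tcf7l2, a transcription factor of thalamic neurons, at 109.5 to 179 CPM and Slc17a6, the glutamate transporter of relay neurons, at 432 to 535 CPM.

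Ghsr encodes the ghrelin receptor, a Gq-coupled receptor with high signalling in the absence of ligand, and RGS4 is an RGS protein that shortens signalling by Gq and by Gi/o proteins. Lrrc38 encodes an auxiliary gamma subunit of the BK potassium channel, which makes the channel open more readily. Cbln1 is a secreted organiser that links presynaptic neurexins to delta glutamate receptors, best known from the cerebellum, and Slit3 is a secreted ligand of Robo receptors in axon guidance. Prss12 encodes neurotrypsin, a serine protease that cleaves agrin at synapses. Ndst4 is an enzyme of the Golgi that removes acetyl groups from heparan sulfate chains and sulfates these, and to such chains Slits and other ligands bind. Pcdh9 is a non-clustered protocadherin, an adhesion molecule of neurons.

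In mm10, Ghsr (ENSMUSG00000051136.1) lies on the plus strand of chromosome 3 at 27371351 to 27378010, and Prss12 (ENSMUSG00000027978.8) at 123446913 to 123506597 and Ndst4 (ENSMUSG00000027971.10) at 125404076 to 125728899 on the same strand of that chromosome. Lrrc38 (ENSMUSG00000028584.3) is on the plus strand of chromosome 4 at 143349757 to 143371032, and Slit3 (ENSMUSG00000056427.4) on that of chromosome 11 at 35121224 to 35708507. Transcribed from the minus strand are Cbln1 (ENSMUSG00000031654.9), chromosome 8 from 87468405 to 87472609, and Pcdh9 (ENSMUSG00000055421.3), chromosome 14 from 93013410 to 93890679. All are protein coding. The antisense gene Gm35065 overlaps a Prss12 exon, and with a kit that does not mark strand its reads cannot be told apart from those of Prss12.

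RefSeq promoter windows (GRCm38.p6) were found for 5 of the 7 genes, and Cbln1 and Ndst4 had no entry. The 250 bases before the start are shown for the 4 genes whose window lies wholly upstream of the annotated gene, since the motif search rests on these letters. That of Slit3 reaches into the gene and is not shown. They lie at chr3:27371101-27371350 for Ghsr, chr3:123446663-123446912 for Prss12, chr4:143349500-143349749 for Lrrc38, all on the plus strand, and chr14:93890680-93890929 for Pcdh9 on the minus strand. Capitals mark a motif match.
Ghsr: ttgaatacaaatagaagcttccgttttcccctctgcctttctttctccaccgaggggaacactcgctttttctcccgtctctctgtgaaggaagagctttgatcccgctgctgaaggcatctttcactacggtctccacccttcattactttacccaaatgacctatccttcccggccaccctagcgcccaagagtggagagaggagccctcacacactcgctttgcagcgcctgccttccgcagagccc
Prss12: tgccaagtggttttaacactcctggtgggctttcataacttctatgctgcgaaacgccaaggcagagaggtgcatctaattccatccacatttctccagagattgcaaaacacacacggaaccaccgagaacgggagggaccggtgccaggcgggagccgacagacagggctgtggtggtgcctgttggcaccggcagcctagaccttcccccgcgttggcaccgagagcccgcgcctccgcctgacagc
Lrrc38: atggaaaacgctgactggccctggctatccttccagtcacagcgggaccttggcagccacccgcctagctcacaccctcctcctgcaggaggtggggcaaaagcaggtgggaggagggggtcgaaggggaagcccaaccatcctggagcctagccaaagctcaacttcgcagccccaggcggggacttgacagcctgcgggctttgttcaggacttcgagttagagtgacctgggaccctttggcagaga
Pcdh9: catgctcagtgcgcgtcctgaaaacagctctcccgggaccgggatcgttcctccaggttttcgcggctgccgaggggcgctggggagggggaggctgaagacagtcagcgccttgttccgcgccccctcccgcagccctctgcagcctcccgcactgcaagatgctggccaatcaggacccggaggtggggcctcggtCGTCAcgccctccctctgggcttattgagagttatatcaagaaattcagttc
The windows differed in base composition. GC content was 54.0% for Ghsr, 59.6% for Prss12, 61.6% for Lrrc38, 63.6% for Pcdh9 and 78.8% for Slit3, against a median of 52.4% over 32851 mouse windows. Of 6 motifs searched on both strands, none was in the windows of all 5 genes. TGACG, which is also part of the full CRE, was in the Pcdh9 window alone, on the strand opposite to the gene (CGTCA as printed, in capitals) from 52 to 48 bases before the start, and in 17.8% of all windows. GGGCGG, the GC box, was matched 6 times in the Slit3 window, with 1 pair of overlapping matches, and in 32.7% of all windows. TGACGTCA (the full CRE, 1.55% of windows), TGANTCA (AP-1, 6.75%), CACGTG (an E-box, 6.02%) and TATAAA (the TATA box, 12.4%) were in the window of none of the 5 genes.

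None of the 7 genes was higher after CFA in libraries labelled KO, where fitted folds lay between 0.791 and 0.944, and all were higher after CFA in WT, by 1.26-fold to 1.94-fold. In naive libraries labelled KO the mean of each gene stood above that in naive WT, and WT after CFA was the highest of the 4 groups for each gene. Per kilobase of exon, Pcdh9 was the most abundant at a mean of 21.4 CPM per kb over 16 libraries, followed by Cbln1 at 6.51, Prss12 at 2.77, Slit3 at 2.43, Ghsr at 1.67, Ndst4 at 1.40 and Lrrc38 at 0.842. Counts behind a single value ran from 37 for Lrrc38 in naive library 7 labelled KO to 11343 for Pcdh9 in CFA library 13 labelled KO. In bulk tissue, more cells of a type and more RNA per cell cannot be told apart.

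**Figure D1:**
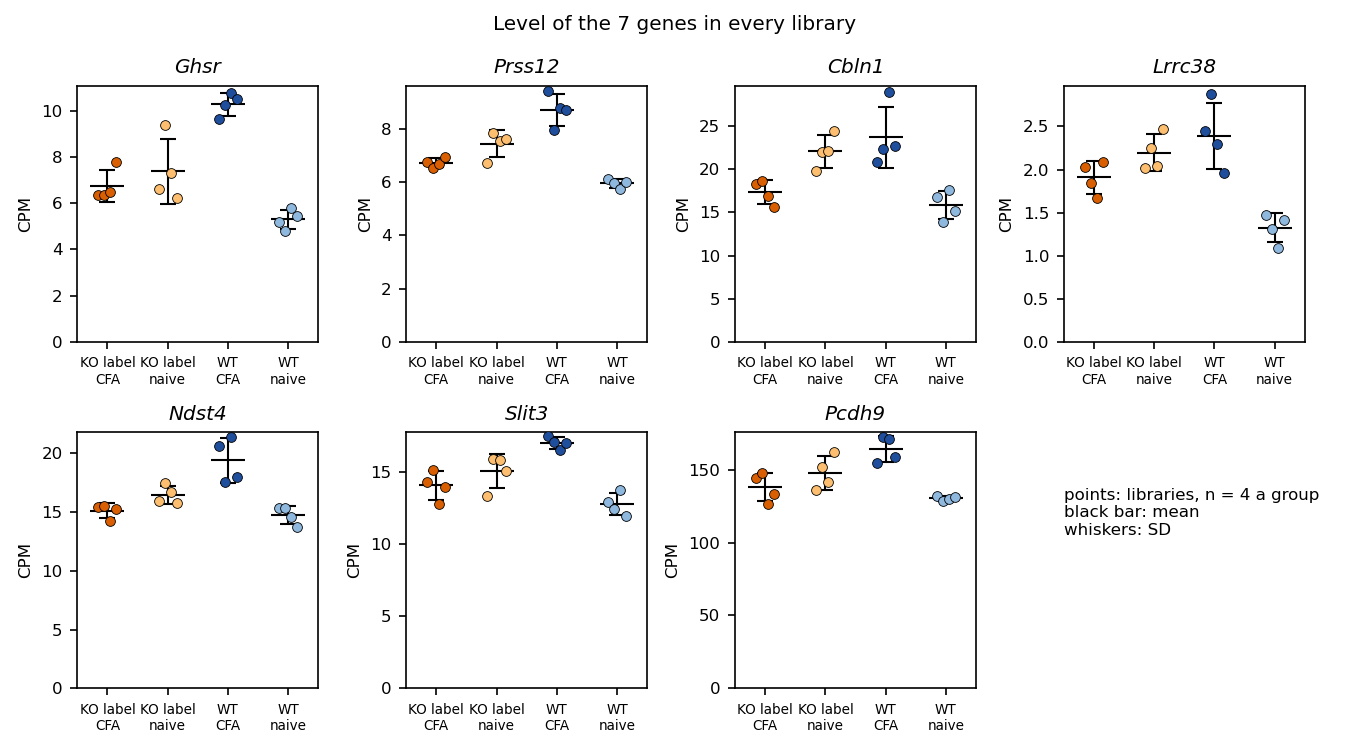
CPM (y axes, from 0) of the 7 genes in each of the 16 libraries, by group from left to right: labelled KO after CFA, labelled KO naive, WT after CFA, WT naive (points are libraries, n = 4 a group, bars are mean and SD). CFA and naive libraries labelled KO overlap for 5 genes, with CFA lower for Cbln1 and Ndst4, while WT CFA libraries lie above all WT naive libraries in every panel.

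Ghsr, the receptor, had the largest WT difference. It was at 6.36, 6.36, 6.48 and 7.77 CPM in CFA libraries labelled KO and at 6.59, 9.38, 7.29 and 6.24 CPM in naive libraries labelled KO. In WT it was at 9.62, 10.2, 10.8 and 10.5 CPM after CFA and at 5.17, 4.78, 5.79 and 5.44 CPM in naive libraries. All WT CFA libraries were above every other library, naive library 6 labelled KO came nearest to these, and all naive WT libraries were below every other library. The log2 change with CFA was -0.12 (SE 0.11) in libraries labelled KO and 0.96 (SE 0.10) in WT.

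Lrrc38, the channel subunit and the lowest of the 7 genes, was at 2.03, 1.84, 1.67 and 2.09 CPM in CFA libraries labelled KO and at 2.02, 2.25, 2.04 and 2.47 CPM in naive libraries labelled KO. It was at 2.45, 2.88, 2.29 and 1.96 CPM in WT after CFA and at 1.48, 1.31, 1.09 and 1.41 CPM in naive WT. The naive WT libraries were below all 12 others, and the other groups overlapped one another. With CFA it differed by -0.18 (SE 0.14) on the log2 scale in libraries labelled KO and 0.87 (SE 0.13) in WT. Each value rests on 37 to 160 counts.

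Of the secreted proteins, Cbln1 was at 18.3, 18.7, 17.0 and 15.6 CPM in CFA libraries labelled KO and at 19.8, 22.1, 22.1 and 24.4 CPM in naive libraries labelled KO. It was at 20.8, 22.3, 28.9 and 22.7 CPM in WT after CFA and at 16.8, 13.9, 17.6 and 15.2 CPM in naive WT. The libraries labelled KO separated in the direction opposite to WT, with every CFA library below every naive one. WT CFA library 11 stood highest, and WT after CFA overlapped naive libraries labelled KO. On the log2 scale CFA differed from naive by -0.34 (SE 0.10) in libraries labelled KO and 0.58 (SE 0.10) in WT.

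Slit3 was at 14.3, 15.2, 12.8 and 13.97 CPM in CFA libraries labelled KO and at 13.3, 15.9, 15.8 and 15.1 CPM in naive libraries labelled KO. It was at 17.5, 17.1, 16.5 and 17.0 CPM in WT after CFA and at 12.9, 12.4, 13.8 and 12.0 CPM in naive WT. WT after CFA was above all other libraries, while the other 3 groups overlapped. CFA minus naive on the log2 scale was -0.08 (SE 0.06) in libraries labelled KO and 0.41 (SE 0.06) in WT.

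Prss12, the agrin protease, was at 6.76, 6.55, 6.69 and 6.95 CPM in CFA libraries labelled KO and at 6.71, 7.87, 7.56 and 7.63 CPM in naive libraries labelled KO. It was at 9.44, 7.95, 8.79 and 8.70 CPM in WT after CFA and at 6.13, 5.98, 5.74 and 6.01 CPM in naive WT. All WT CFA libraries were above every other library and all naive WT libraries below, and naive library 5 labelled KO lay among the CFA libraries of that label, and the other 3 above them. The log2 difference, CFA minus naive, was -0.14 (SE 0.07) in libraries labelled KO and 0.55 (SE 0.07) in WT.

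Ndst4, the heparan sulfate enzyme, was at 15.4, 15.5, 14.2 and 15.3 CPM in CFA libraries labelled KO and at 15.97, 17.4, 16.7 and 15.8 CPM in naive libraries labelled KO. It was at 20.6, 17.55, 21.4 and 17.9 CPM in WT after CFA and at 15.3, 15.3, 14.6 and 13.8 CPM in naive WT. WT after CFA was above all other libraries, and CFA libraries labelled KO lay below the naive ones of that label and within the range of naive WT or just above it. The log2 change with CFA was -0.12 (SE 0.07) in libraries labelled KO and 0.39 (SE 0.06) in WT.

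Pcdh9, the adhesion molecule, was at 144, 148, 127 and 133 CPM in CFA libraries labelled KO and at 136, 152, 142 and 162 CPM in naive libraries labelled KO. It was at 155, 173, 171 and 159 CPM in WT after CFA and at 132, 128, 129.7 and 131 CPM in naive WT. Treated and naive libraries overlapped under the KO label and not in WT, and naive WT was the tightest of its groups, with an SD of 1.57 CPM against 8.84 to 11.5 CPM in the other 3. The log2 change with CFA was -0.10 (SE 0.05) in libraries labelled KO and 0.34 (SE 0.05) in WT, the smallest WT difference of the 7.

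Read in order of the means, WT after CFA came first for all 7 genes, then naive libraries labelled KO, then CFA libraries labelled KO, and naive WT came last. WT CFA as the highest mean and naive WT as the lowest was found in 10.1% of all genes tested. Of the 261 genes called higher after CFA in WT, 181 had this form and 82 had a fitted CFA change below 0 in libraries labelled KO, so both features were common in that larger list. Neighbours in the order often overlapped. WT after CFA overlapped naive libraries labelled KO for Cbln1, Lrrc38 and Pcdh9, the treatments of libraries labelled KO overlapped for all but Cbln1 and Ndst4, and CFA libraries labelled KO overlapped naive WT for Cbln1, Ndst4, Slit3 and Pcdh9.

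**Figure D2:**
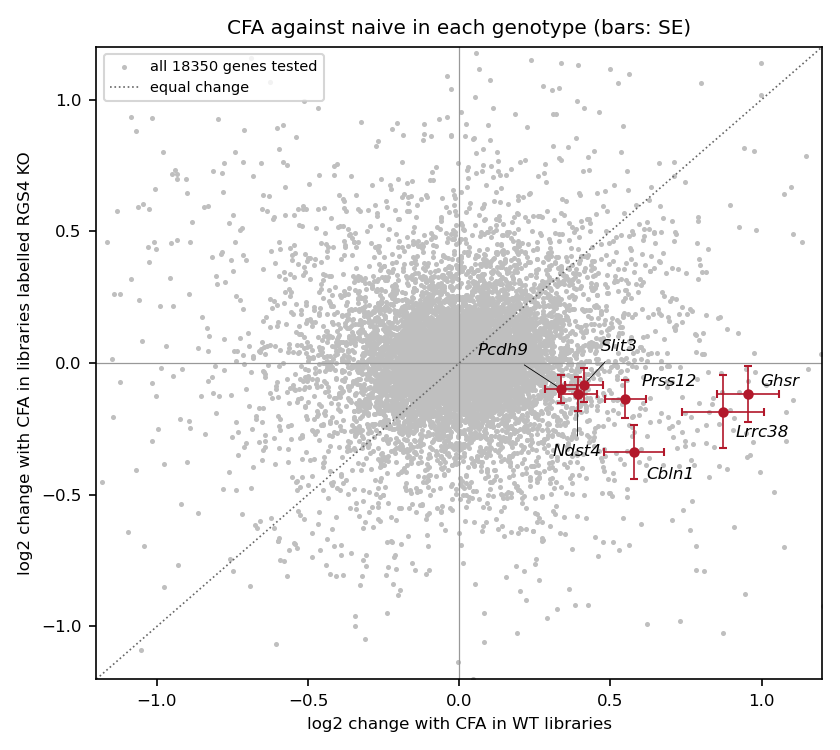
Log2 change with CFA in WT libraries (x axis) and in libraries labelled RGS4 KO (y axis) for the 18350 genes tested (grey, of which 91 lie outside the axes at 1.2) and the 7 genes (red, bars are SE, 4 libraries a group). The 7 genes lie between -0.34 and -0.08 in libraries labelled KO and between 0.34 and 0.96 in WT, below the dotted line of equal change.

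In libraries labelled KO, edgeR called 0 of 7 genes (called means an adjusted p under 0.05), against 0.185% of genes tested in either direction, with 1 of 7 (Cbln1) at an unadjusted p under 0.05 and 0 called by DESeq2. There CFA and naive libraries separated upward for 0 of 7 (2.13% of genes) and downward for 2 of 7 (2.17%). In WT it called all 7 higher after CFA, where 1.42% of genes tested were called higher, and all 7 separated upward, as did 6.13% of genes. The median log2 change of the 7 was -0.12 in libraries labelled KO and 0.55 in WT, against 0.00 for all genes in each. These contrasts chose the genes, so the counts describe the choice.

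The difference between the CFA changes, labelled KO minus WT, is called the interaction. It was -1.07 (SE 0.15) for Ghsr, -1.06 (SE 0.19) for Lrrc38, -0.92 (SE 0.14) for Cbln1, -0.68 (SE 0.10) for Prss12, -0.51 (SE 0.09) for Ndst4, -0.49 (SE 0.09) for Slit3 and -0.43 (SE 0.08) for Pcdh9 on the log2 scale. All 7 were among 10 genes called lower, which is 0.0545% of genes tested (0.0654% in either direction). The others called lower included the predicted genes Gm11413 and Gm13339. Just inside the threshold stood Lrrc38 and Slit3 at an adjusted p of 0.0402, and just outside it Ngfr, the low-affinity neurotrophin receptor, at 0.0577, with an interaction of 1.08, and Caln1 at 0.0814, with an interaction of -0.30.

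How far the interaction calls depended on single libraries differed between the genes. With each of the 16 libraries left out in turn, Ghsr and Prss12 were called in 16 of 16 fits. Cbln1 was called in 10, and not without CFA libraries 13, 15 or 16 labelled KO, naive libraries 6 or 8 labelled KO, or naive WT library 4. Ndst4 was called in 5 fits, those without naive libraries 5 or 7 labelled KO, WT CFA libraries 10 or 12, or naive WT library 1. Lrrc38 was called in 4, those without naive libraries 5 or 7 labelled KO, WT CFA library 12 or naive WT library 1, Slit3 in 4, those without CFA library 14 or naive libraries 5 or 7 labelled KO, or naive WT library 3, and Pcdh9 in 4, those without CFA library 14 or naive libraries 5 or 7 labelled KO, or WT CFA library 9. The sizes moved little. They ranged from -1.15 to -0.94 for Ghsr, -1.14 to -0.95 for Lrrc38, -0.97 to -0.80 for Cbln1, -0.74 to -0.65 for Prss12, -0.56 to -0.46 for Ndst4 and for Slit3, and -0.47 to -0.39 for Pcdh9. With all libraries thinned to the shallowest, 2 of the 7 were called, Ghsr and Cbln1. The CFA change in WT was called in all 16 fits with a library left out for each of the 7 genes.

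**Figure D3:**
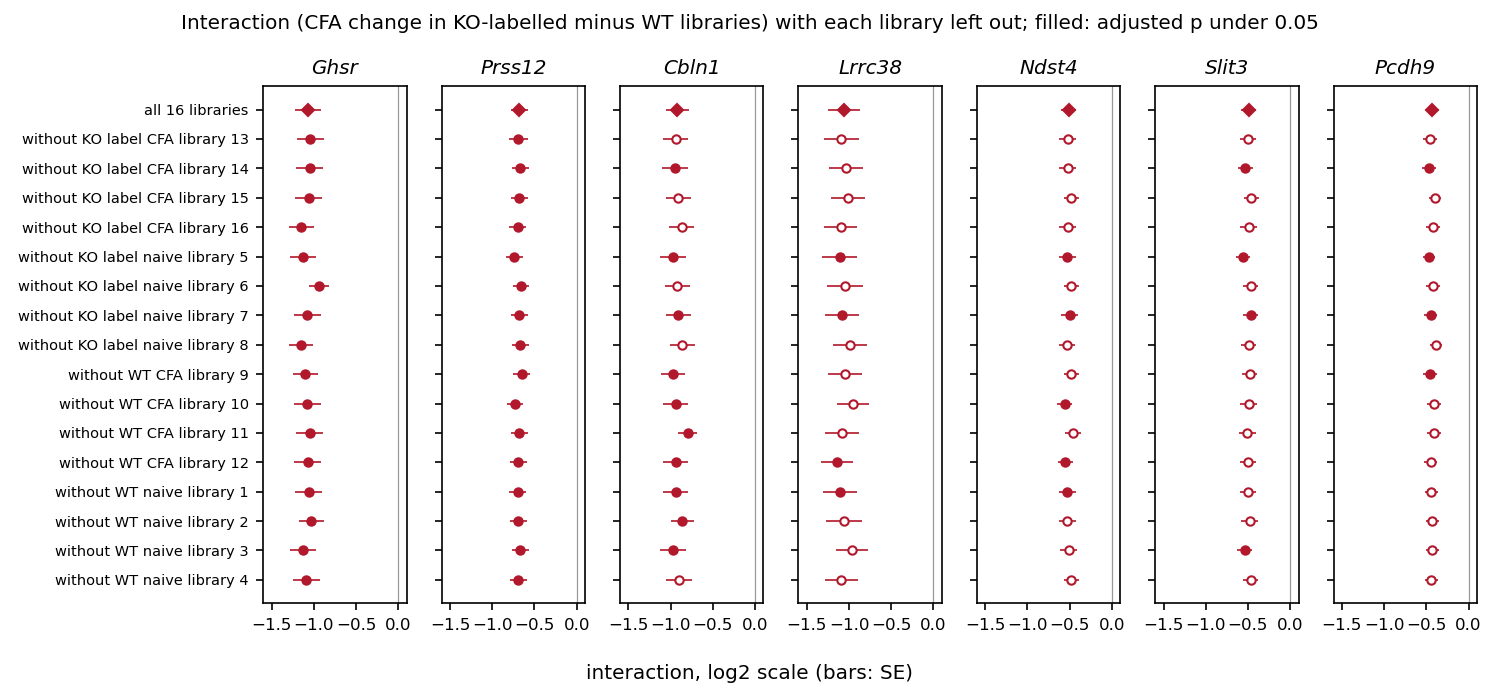
Interaction on the log2 scale (x axes, bars are SE) for the 7 genes with all 16 libraries (diamonds) and with each library left out (circles, 1 row per library), filled where the edgeR adjusted p was under 0.05. Every value lies left of 0, Ghsr and Prss12 are filled in all 16 rows, and Lrrc38, Slit3 and Pcdh9 in 4.

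The difference was present on both sides of the design. In CFA libraries the genes were lower in libraries labelled KO, with log2 differences of -0.61 (SE 0.10) for Ghsr, -0.45 for Cbln1, -0.37 for Prss12, -0.36 for Ndst4, -0.31 for Lrrc38, -0.27 for Slit3 and -0.25 for Pcdh9. In naive libraries they were higher in libraries labelled KO, at 0.74 (SE 0.14) for Lrrc38, 0.47 for Cbln1, 0.46 for Ghsr, 0.31 for Prss12, 0.23 for Slit3, 0.18 for Pcdh9 and 0.15 for Ndst4. After CFA 6 of 7 were called lower (0.954% of genes, with 1.6% called in either direction) and 6 of 7 separated downward (4.25%), the exception being Lrrc38 in each. In naive libraries 4 of 7 were called higher (0.698% of genes, with 1.45% called in either direction), namely Ghsr, Prss12, Cbln1 and Lrrc38, and 6 of 7 separated upward (3.83%), with Slit3 the exception. Of the calls after CFA, that of Cbln1 was lost without libraries 12, 13, 15 or 16, that of Slit3 without 9, 10, 12, 13, 15 or 16, and that of Pcdh9 without 10, 11, 15 or 16. Of the naive calls, that of Ghsr was lost without libraries 1, 2, 4, 6 or 7, that of Prss12 without 2, 3, 4, 6, 7 or 8, and that of Cbln1 without 2, 4, 6, 7 or 8. These contrasts share their libraries with those that chose the genes, so no support is read from them.

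Averaged over both treatments, no genotype difference was detected in any of the 7 genes. This contrast is orthogonal to both CFA contrasts, with 4 libraries in each group. The levels behind it were known when the genes were chosen, so its values are a description. The edgeR test called 0 of 7, where 3.73% of genes tested were called. DESeq2 also called 0 of 7, and 2 of 7 had an unadjusted p under 0.05, namely Lrrc38 at 0.22 on the log2 scale (SE 0.10, adjusted p = 0.302) and Ndst4 at -0.10 (SE 0.05, adjusted p = 0.304). The intervals of 2 SE about the fold, labelled KO over WT, were 0.858 to 1.05 for Ghsr, 0.916 to 1.05 for Prss12, 0.913 to 1.11 for Cbln1, 1.02 to 1.33 for Lrrc38, 0.876 to 0.993 for Ndst4, 0.926 to 1.05 for Slit3 and 0.927 to 1.03 for Pcdh9. The median over the 7 was -0.03 on the log2 scale, against 0.00 for all genes.

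Over all 16 libraries the 7 genes followed one another closely, and inside groups only loosely. Pearson r of log2 CPM over 16 libraries lay between 0.64 and 0.90 for the 21 pairs, with a median of 0.81, but this repeats the shared order of the group means, for which the genes were chosen, and is given without a p. When the group mean was taken out of each value, r lay between -0.09 and 0.63 with a median of 0.20, and 18 of 21 pairs were above 0 (85.7%, against 49.5% of the 128401 pairs of one of the 7 with another tested gene, whose median was 0.00). These pairs share libraries and are not independent, so their number above 0 is a description.

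The closest pair inside groups was Cbln1 and Pcdh9 (Pearson r = 0.63, permutation p = 0.00818, adjusted p = 0.172 over 21 pairs, with Spearman rho = 0.56, permutation p = 0.0229, adjusted p = 0.401). Without the 2 libraries farthest from the median of Cbln1, WT CFA library 11 and naive WT library 2, r was 0.67. Prss12 and Ndst4 followed (r = 0.54, permutation p = 0.0973, adjusted p = 0.622, with rho = 0.56, permutation p = 0.0572, adjusted p = 0.401), and r was 0.39 without naive library 5 labelled KO and WT CFA library 10. Lrrc38 and Pcdh9 had r = 0.51 (permutation p = 0.0479, adjusted p = 0.503, with rho = 0.53, permutation p = 0.0565, adjusted p = 0.401), and 0.56 without WT CFA library 12 and naive WT library 3. No pair passed after adjustment over the 21, and the levels behind these p-values were known when the genes were chosen. Ghsr had r of at most 0.31 with any of the others.

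**Figure D4:**
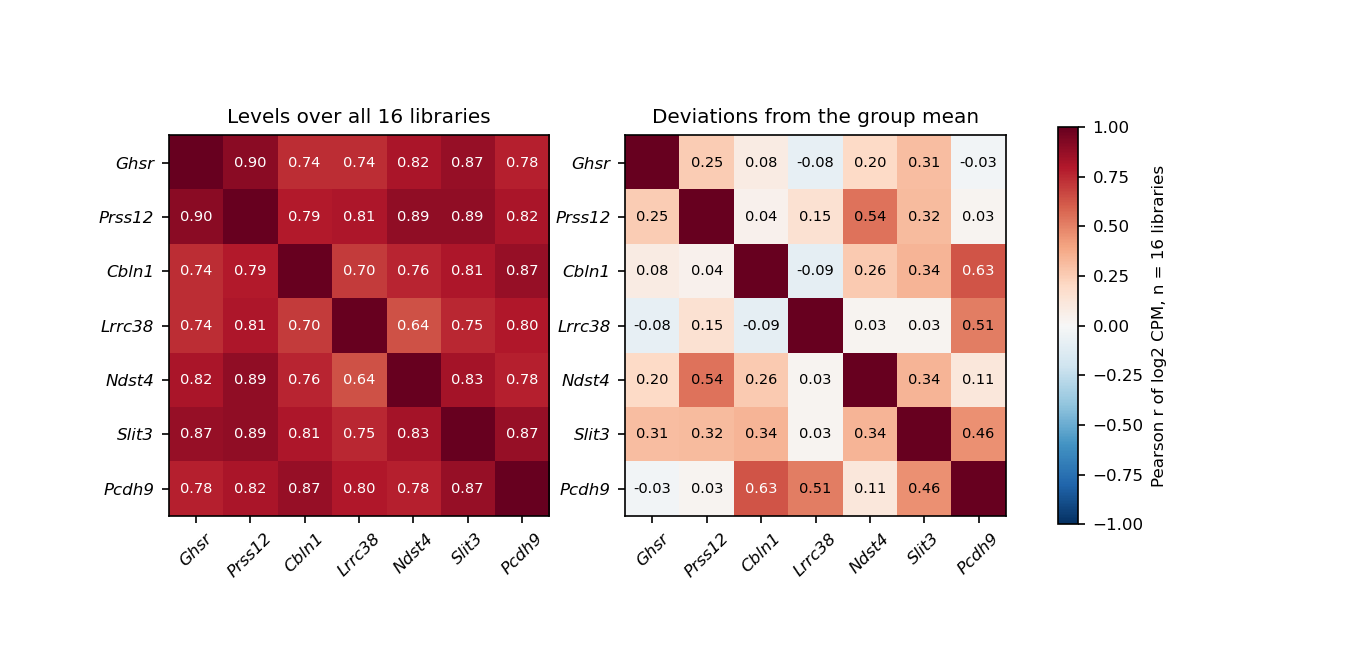
Pearson r of log2 CPM between the 7 genes over 16 libraries, for levels (left) and for deviations from the group mean (right), with colour from -1 (blue) to 1 (red). On the left all 21 pairs lie between 0.64 and 0.90, on the right between -0.09 and 0.63.

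Of 14882 genes averaging 1 CPM or more, those whose levels over 16 libraries were most like the mean standardised level of the 7 included Dner (r = 0.91), Adamtsl5 (r = 0.90), Nefl (r = 0.89) and Kcng4 (r = 0.89). Kcng4, a modifier subunit of potassium channels, was at 28.9 ± 6.20 CPM in CFA libraries labelled KO, 32.6 ± 9.52 in naive libraries labelled KO, 42.6 ± 3.76 in WT after CFA and 19.99 ± 4.64 in naive WT (SD, n = 4 each). Nefl, the neurofilament light chain, was at 479 ± 32.1, 511 ± 51.5, 552 ± 27.3 and 417 ± 36.3 CPM in the same groups. The most opposite were Hmcn1 (r = -0.87), Pkdcc (r = -0.86) and Zcchc14 (r = -0.86). Inside groups each of the 7 had a different nearest gene, with Iars for Pcdh9 (r = 0.93), Gucy1a1 for Ndst4 (r = 0.92), Sh3bp5 for Cbln1 (r = 0.88), Taf11 for Slit3 (r = 0.88), Agfg2 for Prss12 (r = 0.87), Mcam for Lrrc38 (r = 0.87) and Rfc5 for Ghsr (r = 0.86). These are the highest of many values over 16 libraries and are given as a description.

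Of 91 tested genes in 7 lists of partners and pathway members, edgeR called 0 after CFA in libraries labelled KO, in the interaction or in the genotype average, and 3 higher and 2 lower after CFA in WT (5.49% of the 91, against 2.23% of all genes). In WT 33 of the 91 had an unadjusted p under 0.05 and DESeq2 called 7. At an unadjusted p under 0.05 the numbers were 7, 16 and 9 in the 3 contrasts without a call, and DESeq2 called 1 (Nlgn3, in libraries labelled KO), 0 and 0. The interaction median was between -0.12 and 0.04 in each list, against -0.68 for the 7 genes.

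For the ghrelin receptor, none of 15 tested genes of the ghrelin system was called after CFA in WT (4 at an unadjusted p under 0.05, 0 by DESeq2), and the most abundant, Gnaq, the Gq alpha subunit, was at 231 ± 3.48 CPM in WT after CFA and 226 ± 6.51 CPM in naive WT. For the BK subunit, 1 of 7 was called higher, Lrrc52, a related gamma subunit at 0.207 to 0.941 CPM in WT after CFA and 0 to 0.137 CPM in naive WT, too low for a reliable fold and called neither by DESeq2 nor without the low-count filter. For cerebellin partners, 1 of 16 was called, the postsynaptic adhesion gene Nlgn3, with a log2 change of -0.17 in libraries labelled KO (adjusted p = 0.0877) and of -0.18 in WT (SE 0.04, adjusted p = 0.017), and its WT call was lost in 4 of 16 fits, with adjusted p up to 0.0760 without naive WT library 3. Among Slit and Robo genes edgeR called 0 of 15 in WT (5 at an unadjusted p under 0.05), and DESeq2 called 1, Srgap3, a Robo-binding GTPase regulator. Srgap3, the most abundant, was at 378 ± 8.77 CPM in WT after CFA and 356 ± 6.76 CPM in naive WT. Its log2 change was 0.07 in libraries labelled KO and 0.08 in WT (edgeR adjusted p = 0.481 and 0.0828).

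For the agrin protease, Agrn itself was called, and it fell in WT after CFA. Agrin was at 284 ± 6.33 CPM in CFA libraries labelled KO, 292 ± 12.2 in naive libraries labelled KO, 268 ± 9.40 in WT after CFA and 305 ± 6.19 in naive WT (SD, n = 4 each), a log2 change of -0.04 in libraries labelled KO (adjusted p = 0.820) and of -0.19 in WT (SE 0.03, adjusted p = 0.00609), with an interaction of 0.14 (SE 0.05, adjusted p = 0.300) that was not called. It was the 1 of 9 tested genes of its list that was called in WT. Of 19 heparan sulfate genes, edgeR called 2 in WT after CFA, both higher, and the median log2 change of the list was 0.02. In WT 8 had an unadjusted p under 0.05 and DESeq2 called 3. Among these was Hs6st2, with a fitted log2 change of -0.19 (edgeR adjusted p = 0.0689). Ndst3, a close relative of Ndst4, was at 27.8 ± 1.501 CPM in WT after CFA and 23.5 ± 1.73 CPM in naive WT (log2 change 0.24, adjusted p = 0.0188), and Sulf2, which removes sulfate from the chains outside the cell, at 107 ± 2.54 CPM in WT after CFA and 93.4 ± 3.62 CPM in naive WT (log2 change 0.20, adjusted p = 0.00667). In libraries labelled KO the log2 changes were also above 0, at 0.07 (SE 0.05) for Ndst3 and 0.11 (SE 0.04) for Sulf2, and were not called. Neither interaction was called, at -0.17 for Ndst3 (adjusted p = 0.486) and -0.09 for Sulf2 (adjusted p = 0.586). The Ndst3 call in WT was lost in 3 of 16 fits with a library left out (adjusted p up to 0.0736 without naive WT library 2). Of 10 other non-clustered protocadherins 0 were called (5 at an unadjusted p under 0.05, 1 by DESeq2), with the most abundant, Pcdh10, at 265 ± 11.1 CPM in WT after CFA and 289 ± 15.4 CPM in naive WT.

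Of 53 tested genes within 1 Mb of one of the 7, 2 were called after CFA in WT (3.77%, against 2.23% of all genes), Pld1 beside Ghsr and Ndst3 beside Prss12, and 0 in the interaction. This share is near that of all genes. Prss12 and Ndst4 are 1.9 Mb apart with 4 tested genes between these, of which 1, Ndst3, was called in WT.

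Markers of some other cell groups moved with the 7 genes and those of others moved against these. The part of either in the differences was not tested. The oculomotor and Edinger-Westphal list, for cells of the midbrain that drive eye muscles or release peptides, summed to 73.1 to 209 CPM in CFA libraries labelled KO, 37.7 to 285 in naive libraries labelled KO, 279 to 417 in WT after CFA and 32.6 to 62.2 in naive WT, so WT CFA and naive libraries did not overlap. Of its 7 tested genes, edgeR called 0 after CFA in libraries labelled KO (0 at an unadjusted p under 0.05, 0 by DESeq2) and 2 in WT, against 2.23% of all genes, where all 7 had an unadjusted p under 0.05 and DESeq2 called 2. The median log2 change of the 7 markers was -0.14 in libraries labelled KO and 2.18 in WT, and their interaction median was -2.19, with 0 called by edgeR, 4 at an unadjusted p under 0.05 and 1, Cartpt, called by DESeq2. Those called in WT were the peptide genes Cartpt, at 277 ± 33.3 CPM in WT after CFA and 33.2 ± 16.7 CPM in naive WT, and Ucn, at 17.6 ± 2.61 and 1.80 ± 1.48 CPM in the same groups. Cartpt made up most of the list's sum in WT after CFA, at 228 to 303 CPM. Of the tested genes of the list, only Chat overlapped between the WT groups, at 5.34 to 18.5 CPM after CFA and 0.889 to 6.27 in naive WT. The call of Cartpt was lost in 5 of 16 fits with a library left out (adjusted p up to 0.0796 without naive WT library 2) and that of Ucn in 11 (up to 0.125 without the same library). The mean standardised level of this list had r = 0.70 with that of the 7 genes over 16 libraries, and r = 0.44 for deviations from the group means, as a description over libraries that share their groups.

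The list for the reticular nucleus and zona incerta, inhibitory cells that border the labelled region, summed to 1114 to 1358 CPM in CFA libraries labelled KO, 1166 to 1557 in naive libraries labelled KO, 1219 to 1403 in WT after CFA and 1124 to 1247 in naive WT. None of its 8 genes was called by edgeR after CFA in libraries labelled KO, after CFA in WT or in the interaction (0, 3 and 3 at an unadjusted p under 0.05, 0 by DESeq2 in each), and Pvalb, of the calcium-binding protein parvalbumin, was at 39.5 ± 13.1, 48.4 ± 20.8, 51.3 ± 6.34 and 26.8 ± 6.96 CPM in these groups. Pvalb had the largest fitted WT change of the list, at 0.95 on the log2 scale. Sst (-0.19) and Meis2 (-0.15) were below 0 in WT and the rest of the list above 0. The list's median log2 change was -0.10 in libraries labelled KO and 0.13 in WT, and its interaction median was -0.23. The mean standardised level of the list had r = 0.71 with that of the 7 genes over 16 libraries, and r = 0.73 for deviations from the group means, again as a description. For such deviations the next highest r were those of cortex (0.55) and endothelium (0.47) markers. The lowest were those of markers of other thalamic nuclei (-0.66), astrocytes (-0.54), habenula (-0.51), microglia (-0.46) and thalamic relay neurons (-0.42). Oligodendrocyte markers summed to 6779 to 9107 CPM, 6725 to 10854, 8141 to 9245 and 6381 to 8249 in the same order, and markers of midbrain dopamine and serotonin neurons to 874 to 1282, 344 to 1279, 229 to 1088 and 849 to 1889 CPM. The median log2 change of the dopamine and serotonin list went the other way from the 7 genes, at 0.55 in libraries labelled KO and -0.75 in WT. The serotonin genes Tph2, Slc6a4 and Fev fell in WT, by -1.05, -1.06 and -1.03. The dopamine genes Th and Slc6a3 did not, at 0.05 and 0.08. The list had r = -0.32 with the 7 genes over 16 libraries and r = 0.24 for deviations from the group means. Its interaction median was 1.31, and edgeR called 0 of its 9 genes in each. Thalamic relay markers summed to 1123 to 1256, 1120 to 1277, 1105 to 1277 and 1062 to 1163 CPM, and 1 of 11 was called in WT, Ntng1, which rose by 0.21 on the log2 scale (adjusted p = 0.0105). Ntng1 changed by -0.07 in libraries labelled KO (adjusted p = 0.736), with an interaction of -0.27 (adjusted p = 0.0941) that DESeq2 called and edgeR did not. In naive libraries it was called higher under the KO label, by 0.17 (adjusted p = 0.0359). The median log2 change of the relay list was 0.00 in libraries labelled KO and 0.13 in WT, and its interaction median was -0.09. DESeq2 also called Plekhg1 in WT (0.21, with 0.17 in libraries labelled KO) and Prkcd in libraries labelled KO (0.42, with 0.14 in WT). Interactions were above 0 for Prkcd (0.28), Lef1 (0.46) and Ramp3 (0.58), and below 0 for the rest of the list. No marker in these lists was at 0 in every library. The list for other thalamic nuclei summed to 894 to 952, 884 to 980, 983 to 1068 and 815 to 895 CPM in the same order, a sum that the neurofilament gene Nefm dominates. The list's median log2 change in WT was -0.11, and Nefm was the only 1 of its 6 genes with a fitted change above 0 there. Nefm was at 526 ± 58.5, 549 ± 62.9, 640.5 ± 41.1 and 446 ± 63.0 CPM, with a WT call (log2 change 0.52, adjusted p = 0.0326) that was lost in 5 of 16 fits (adjusted p up to 0.0973 without naive WT library 3). Sim1, a hypothalamic transcription factor, was at 2.33 ± 0.166, 2.61 ± 0.373, 3.81 ± 0.576 and 2.11 ± 0.335 CPM, and was called in WT (log2 change 0.84, adjusted p = 0.00222) in all 16 fits. It was the 1 of 6 tested hypothalamic genes that edgeR called in WT, and the median log2 change of that list was -0.12. Nkx2-1 was at 0.86, while Trh was at -0.43, Otp at -0.32 and Pomc, which DESeq2 called, at -1.14. Lypd6b, of the list for other thalamic nuclei, was called lower after CFA under both labels, at -0.48 in libraries labelled KO (adjusted p = 0.0189) and -0.40 in WT (adjusted p = 0.0162) on the log2 scale, lost in 6 fits (adjusted p up to 0.0739 without CFA library 13 labelled KO) and 1 fit of 16 (0.0563 without WT CFA library 11). Dsp, a hippocampal marker at 0.983 ± 0.141 CPM in WT after CFA and 0.370 ± 0.165 CPM in naive WT, was called in WT at an adjusted p of 0.0499 and in 5 of 16 fits. It was called neither by DESeq2 nor without the low-count filter (edgeR adjusted p = 0.0879). The median log2 change of the hippocampal list in WT was 0.04.

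**Figure D5:**
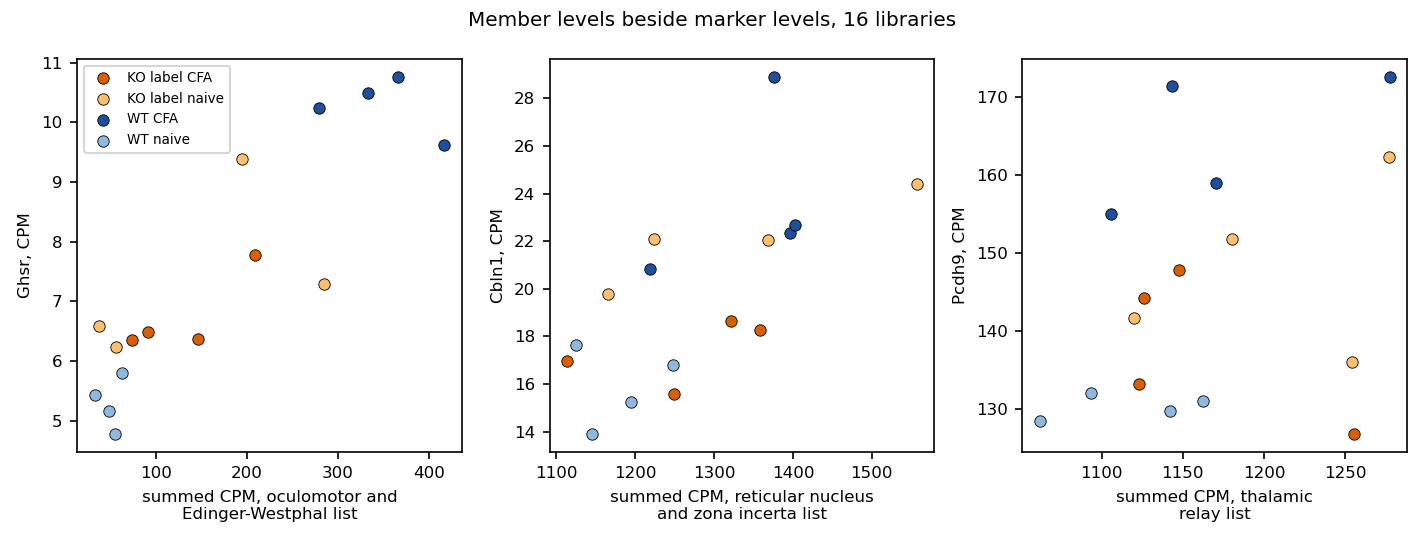
Levels of 3 of the genes (y axes, CPM, not from 0) against summed CPM of 3 marker lists (x axes) in the 16 libraries, coloured by group: Ghsr with the oculomotor and Edinger-Westphal list, Cbln1 with the reticular nucleus and zona incerta list, and Pcdh9 with the thalamic relay list. The WT CFA libraries lie at 279 to 417 CPM of the first list, above the naive WT libraries at 32.6 to 62.2, while the relay sums of the groups overlap.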

How the data were processed

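The tables deposited by the authors for 16 libraries hold raw whole-number counts, 1 per Ensembl gene ID. Per the labels' protocols, punches of 2 mice were pooled per library, TRIzol was used for RNA and a TruSeq RNA version 2 kit, one without strand marking, for libraries. The submitters' processing notes name mm10, TopHat and DESeq2. Neither versions nor annotation nor strand setting is known from these sources. Reads without a feature, ambiguous or not uniquely aligned were 38.0% to 39.9% of listed reads and stayed out of library sizes and tests. Symbols, positions and exon lengths came from GENCODE of the same build, which named 37607 of 38924 IDs.

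The count analysis used edgeR 4.0.16 (R 4.3.3). After filterByExpr at a minimum count of 10, 18350 genes with 99.961% of counts were scaled by TMM, and group means of all 16 libraries were fitted together by robust quasi-likelihood (common biological coefficient of variation 6.1%). P-values were two-sided and Benjamini-Hochberg adjusted over all genes, with 0.05 as the threshold of a call. Gene-level adjusted p-values are from this test unless another tool is named. The code was checked on simulated counts. CPM use TMM-scaled totals. Deviations from group means of log2 CPM (prior count 2) were correlated with 100000 permutations inside groups, adjusted over 21 pairs. Alternatives were DESeq2 1.42.0, RLE size factors, no low-count filter, thinning to 18057885 counts per library, fits restricted to the 2 groups in question and leaving out each library.

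The labels speak of biological replicates of separate pools, so p-values measure the spread between pools. Replicates differed by more than sampling noise (chi-square per degree of freedom 3.55 to 13.71) and all were kept. The precision of low genes is limited by their counts, from 37 upward for the 7 genes.

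The 7 genes, the lists of partners and markers and the motifs were chosen with earlier results of these data known. Named besides the 7 are Rgs4, called genes of a partner list (at most 4, or its most abundant gene where none was called), the genes most like the 7 in level, and called genes of marker lists. Hmcn1, Pkdcc, Zcchc14, Hs6st2, the other genes called or nearly called in the interaction, neighbours on the chromosome and some markers were named after their values were seen. A gene that these rules would name is not reported here.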

Additional observations from a re-analysis of the deposited data

Results flagged for a closer look

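Of 28 groups of 4 libraries (7 genes in 4 groups), 2 held a library far from the other 3. Chance gives such a library in about 1 group in 20. Ghsr was at 7.77 CPM in CFA library 16 labelled KO, where the other 3 were at 6.36 to 6.48 CPM, and its gap to the nearest was 0.91 of the range of the group. Ndst4 was at 14.2 CPM in CFA library 15 labelled KO, where the other 3 were at 15.3 to 15.5 CPM, with a gap of 0.839 of the range. Without these libraries the interactions kept their direction, and the call held for Ghsr and was lost for Ndst4.

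The CFA change differed between libraries labelled KO and WT for all 7 genes, by an interaction term in the edgeR model. The differences on the log2 scale were -1.07 for Ghsr, -1.06 for Lrrc38, -0.92 for Cbln1, -0.68 for Prss12, -0.51 for Ndst4, -0.49 for Slit3 and -0.43 for Pcdh9. The genes were chosen for this difference, so these values support nothing beyond the choice.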

How the results depend on the processing

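Numbers of genes called moved with the tool and with depth. DESeq2 called 87 genes after CFA in libraries labelled KO (34 by edgeR), 764 in WT (409), 86 in the interaction (12), 449 between genotypes in CFA libraries (294) and 456 in naive ones (266). Without the low-count filter 31 were called in the interaction. With libraries thinned to the shallowest, 197 were called in WT, 4 in the interaction, 179 between genotypes after CFA and 443 in the genotype average (685). Of the 7 genes, thinning left 2 called in the interaction, 3 in the CFA and 1 in the naive genotype contrast, and 2 were called in the naive contrast both without the filter and when the fit held just those 2 groups. With 1 library left out, genes called ranged from 16 to 42 after CFA in libraries labelled KO, 178 to 754 in WT, 5 to 27 in the interaction, 195 to 407 between genotypes in CFA libraries, 135 to 296 in naive ones and 505 to 734 in the average, and the 7 genes called from 0 to 0, 7 to 7, 2 to 7, 3 to 6, 1 to 5 and 0 to 0. The median r inside groups ranged from 0.04 to 0.30. The genotype average, near 0 for these genes, ranged from -0.02 to 0.07 for Cbln1 and from -0.04 to 0.01 for Slit3. It changed sign for Cbln1 at -0.02 without naive WT library 2, naive library 8 labelled KO or WT CFA library 9, at 0.00 (below 0 before rounding) without WT CFA library 10 or CFA libraries 13 or 14 labelled KO, and for Slit3 at 0.01 without naive library 5 labelled KO. The cause was not tested. Of the other values of single genes, 1779 kept direction and call or moved by less than the spread. For named genes other than the 7, 82 values lost and 2 gained a call. Outside the genotype average the 7 genes were judged by size of change alone. The calls they lost, given above, are therefore inside the 1779 and not the 82. No paired analysis was possible because library numbers run from 1 to 16 and none is shared between groups. Lrrc38, with 37 to 160 counts per library, is the gene that depth limits most.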
